A study of Homo sapiens with 2 samples.

Results

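The miR-200 family was followed through 2 small RNA libraries of FaDu, a squamous carcinoma line of the hypopharynx that the labels spell FadU. The members are 8 mature miRNAs, matched by name among the 2038 names of each deposited table: both arms of miR-200a, miR-200b and miR-141, together with miR-200c-3p and miR-429. The sphere library came from FaDu cells kept in a tumour sphere medium of DMEM-F12 supplemented with N2 Plus, bFGF and EGF (each growth factor at 10 ng/ml), and the labels call these cells sphere-derived cancer stem cells. The parental library came from FaDu cells grown in RPMI-1640 that contained 10% FBS. Both media contained 1% penicillin-streptomycin, both libraries started from 1 µg of total RNA and used the TruSeq small RNA protocol, and no genetic change is labelled in either. Since each group is a single library of a single line, nothing below could be checked against replicates and no test between the conditions was possible. Medium, serum and growth form differ together between the libraries and cannot be told apart.

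The miR-200 family keeps epithelial cells epithelial. Its members pair with sites in the transcripts of ZEB1 and ZEB2, transcription factors that silence E-cadherin and drive the transition to a mesenchymal state, and ZEB1 and ZEB2 in turn silence both miR-200 transcription units. A miRNA chooses its targets mainly through its seed (bases 2 to 8 from the 5′ end), and the family has a pair of seeds that differ in a single base and so have partly different targets. Each hairpin precursor is cut into a 5p and a 3p strand, of which 1 is usually kept in Argonaute and the other degraded.

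The sequences are shown because the comparison turns on the seed, which is given in capitals (RefSeq, GRCh38.p14, 5′ to 3′). Of the 8 members, 7 had an entry, and miR-141-5p had none.
miR-200a-3p: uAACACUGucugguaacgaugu
miR-141-3p: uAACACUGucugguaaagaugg
miR-200b-3p: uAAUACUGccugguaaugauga
miR-200c-3p: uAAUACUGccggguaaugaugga
miR-429: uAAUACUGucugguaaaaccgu
miR-200a-5p: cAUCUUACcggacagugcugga
miR-200b-5p: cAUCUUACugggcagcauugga
Counted from the 5′ end, the seed AACACUG of miR-200a-3p and miR-141-3p differs from the seed AAUACUG of miR-200b-3p, miR-200c-3p and miR-429 by C4U. Within the first seed group, miR-200a-3p and miR-141-3p differ by C17A and U22G. Within the second, miR-200b-3p and miR-200c-3p differ by U11G and A22G over the 22 bases they share, while miR-200b-3p and miR-429 differ at 6 bases. miR-200a-5p and miR-200b-5p share the seed AUCUUAC. None of these 3 seeds was found in any other mature human miRNA of the RefSeq table. Since miR-200a-3p and miR-141-3p, and likewise miR-200b-3p and miR-200c-3p, match at 20 of 22 bases, the division of reads within each pair depends on how the authors treated reads with errors or trimmed ends, which is not given in the sources used here. Sums over a seed group depend on it less.

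The seeds are spread over both transcription units of the family. On chromosome 1 the hairpins of miR-200b, miR-200a and miR-429 lie in that order on the plus strand inside the long non-coding gene MIR200BHG, with gaps of 664 and 1052 bases. The mature strands there are miR-200b-5p at chr1:1167124-1167145, miR-200b-3p at chr1:1167160-1167181, miR-200a-5p at chr1:1167878-1167899, miR-200a-3p at chr1:1167916-1167937 and miR-429 at chr1:1169055-1169076. On chromosome 12 the hairpins of miR-200c and miR-141 lie 330 bases apart on the plus strand inside the long non-coding gene MIR200CHG, with miR-200c-3p at chr12:6963742-6963764 and miR-141-3p at chr12:6964155-6964176. These positions are in GRCh38.p14, while the authors used hg19, and the deposited tables hold no coordinates. Each transcription unit thus carries at least 1 member of each seed, so seed and chromosome can be compared separately, within the limit on near-identical members given above.

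All 8 members were above 0 in both libraries. Values are RPKM, which the authors computed per kilobase of feature and per 1000000 reads, and rescaled RPKM, which is the share of the summed RPKM of a library in parts per 1000000. The 2 scales differ because miRNAs took an estimated 12.1% of the reads that the authors divided by in spheres and 58.4% in parental cells, where the summed RPKM was 4.82 times higher. The estimated depth on miRNAs was 682359 reads in the sphere library and 4542489 reads in the parental library. All intervals are 95% intervals from estimated reads and cover no error beyond counting, as PCR can copy 1 molecule many times. A value of 3 reads, taken as the floor, is 4.40 rescaled RPKM in spheres and 0.660 in parental cells.

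Relative to all miRNAs, the family was more abundant in spheres, and nearly all of the difference lay in the AACACUG seed. The 8 members together took 2.56% of the miRNA signal in spheres (2.53% to 2.60%) and 0.687% in parental cells (0.679% to 0.694%), which is 3.73-fold higher. miR-200a-3p and miR-141-3p together held 23290 rescaled RPKM in spheres and 4570 in parental cells, 5.10-fold higher (4.99 to 5.20). miR-200b-3p, miR-200c-3p and miR-429 together held 2022 rescaled RPKM in spheres and 1799 in parental cells, 1.12-fold higher (1.06 to 1.19). As deposited, the family summed to 141250 RPKM in spheres and 182137 in parental cells, or 1.29 times lower in spheres, so the direction of the family total depends on the scale. On that scale the AACACUG seed was nearly level, with 128308 RPKM in spheres and 121240 in parental cells, while the AAUACUG seed was 4.28 times lower (4.05 to 4.54), with 11141 RPKM in spheres and 47721 in parental cells. The gap between the seeds was therefore present on both scales.

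miR-200a-3p, a direct repressor of ZEB1 and ZEB2 made from the middle hairpin on chromosome 1, had 11026 rescaled RPKM in spheres and 1859 in parental cells. It ranked 17 of all names in spheres and 47 in parental cells, and took 1.10% (1.08% to 1.13%) of the miRNA signal in spheres against 0.186% (0.182% to 0.190%) in parental cells. Its fold of 5.93 was the highest of the family. As deposited it had 60745 RPKM in spheres and 49332 in parental cells, 1.23-fold higher (1.19 to 1.27), which makes it the single measured member that was higher in spheres on both scales.

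miR-141-3p, its seed partner from chromosome 12, was the most abundant member in each library. It had 12264 rescaled RPKM in spheres and 2710 in parental cells, and ranked 15 in spheres and 38 in parental cells. The fold of 4.52 was somewhat smaller than that of miR-200a-3p, and the ratio of miR-141-3p to miR-200a-3p was 1.11 (1.08 to 1.15) in spheres and 1.46 (1.42 to 1.50) in parental cells. As deposited it was 1.06 times lower in spheres (1.04 to 1.09), at 67564 RPKM in spheres and 71908 in parental cells.

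The AAUACUG seed did not show the same difference. miR-200b-3p, the first hairpin of the chromosome 1 unit, had 790 rescaled RPKM in spheres and 975 in parental cells, 1.23 times lower (1.13 to 1.35). miR-200c-3p, the chromosome 12 member of this seed, had 925 rescaled RPKM in spheres and 585 in parental cells, 1.58-fold higher (1.45 to 1.72). miR-429, the last hairpin on chromosome 1 and the least abundant of the 5, had 308 rescaled RPKM in spheres and 238 in parental cells, 1.29-fold higher (1.11 to 1.50). None of the 3 reached 2-fold in either direction on this scale, and they ranked between 61 and 90 in spheres and between 52 and 93 in parental cells. As deposited, all 3 were at least 2-fold lower in spheres, as were 79.6% of the 269 miRNAs counted below as measured. miR-200b-3p had 4352 RPKM in spheres and 25879 in parental cells (5.95 times lower), miR-200c-3p 5095 in spheres and 15528 in parental cells (3.05 times lower), and miR-429 1694 in spheres and 6314 in parental cells (3.73 times lower).

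**Figure D1:**
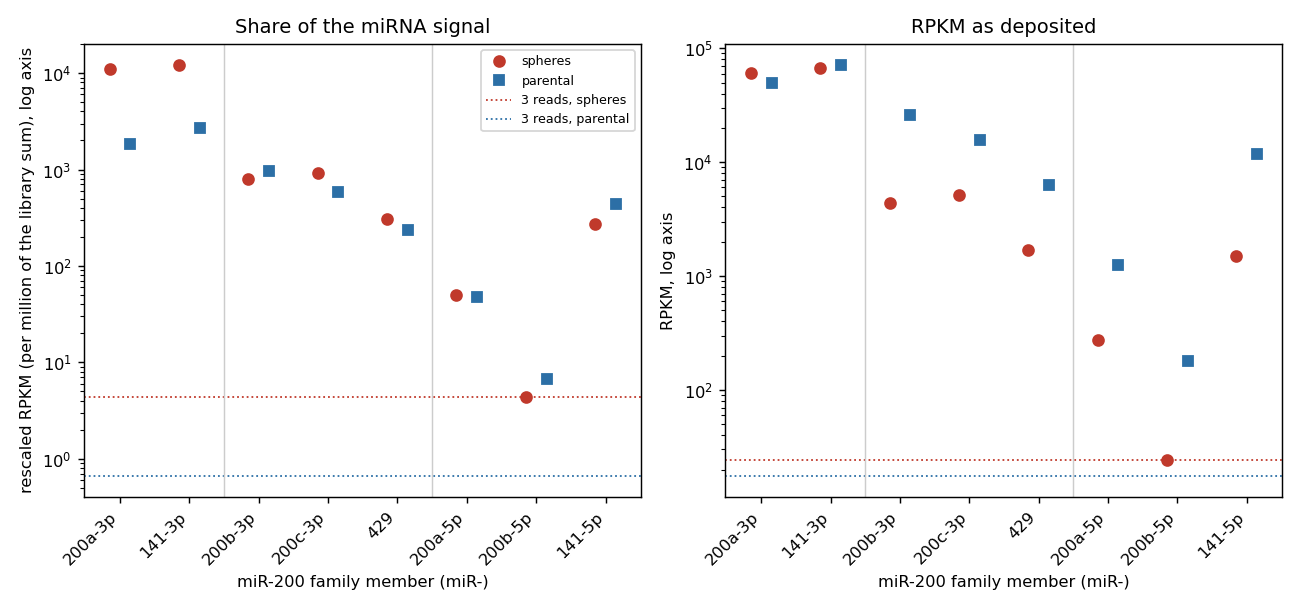
Level of each member in the sphere library (red circles) and the parental library (blue squares), as rescaled RPKM (left) and RPKM as deposited (right), both on log axes, with dotted lines at 3 estimated reads. The vertical lines separate the AACACUG seed, the AAUACUG seed and the 5p strands: miR-200a-3p and miR-141-3p stand at 11026 and 12264 rescaled RPKM in spheres, apart from the parental 1859 and 2710, while the other members lie close together on the left and below parental on the right.

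The order of the levels differed between the libraries. In spheres it ran miR-141-3p, miR-200a-3p, miR-200c-3p, miR-200b-3p, miR-429, miR-141-5p, miR-200a-5p and miR-200b-5p. In parental cells miR-200b-3p stood above miR-200c-3p and miR-141-5p stood above miR-429. Of the neighbours in the sphere order, miR-429 and miR-141-5p, at 210 and 186 estimated reads, were not apart beyond counting error, with a ratio of 1.13 (0.922 to 1.38). miR-200c-3p and miR-200b-3p were close in spheres, at 0.0925% (0.0854% to 0.1000%) and 0.0790% (0.0725% to 0.0859%) of the miRNA signal. The interval of their ratio, given with the ratios inside each library, excluded 1. The share intervals of all other neighbours in both orders did not overlap.

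The make-up of the family signal shifted towards the AACACUG seed. miR-200a-3p made up 43.0% of the summed RPKM of the 8 members in spheres (42.3% to 43.7%) and 27.1% in parental cells (26.6% to 27.6%). miR-141-3p made up 47.8% (47.1% to 48.6%) in spheres and 39.5% (38.9% to 40.0%) in parental cells. Together they held 90.8% in spheres and 66.6% in parental cells. miR-200b-3p held 3.08% in spheres and 14.2% in parental cells, and the other members of its seed were lower as a share too, miR-200c-3p at 3.61% in spheres and 8.53% in parental cells and miR-429 at 1.20% in spheres and 3.47% in parental cells. The 5p strands took 1.27% in spheres and 7.23% in parental cells. These shares use a single library each and do not depend on the scaling between libraries.

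**Figure D2:**
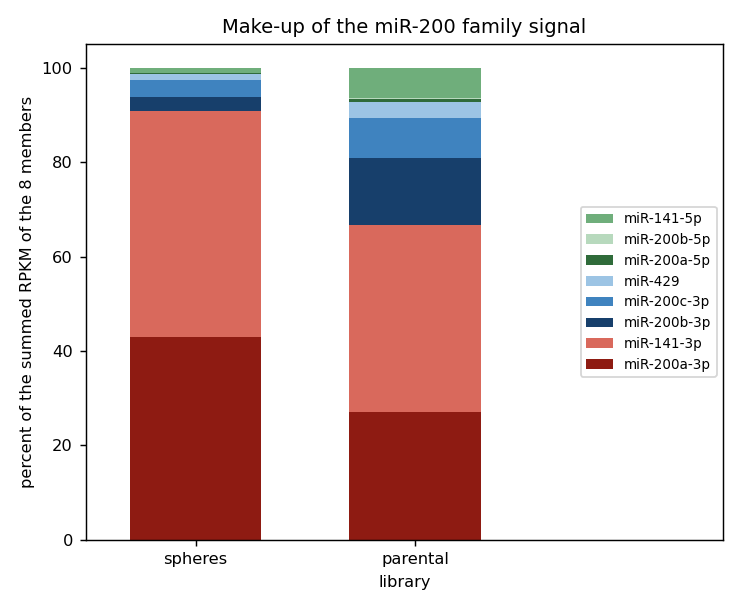
Percent of the summed RPKM of the 8 members that each member holds, in the sphere library (left bar) and the parental library (right bar). The red blocks, miR-200a-3p and miR-141-3p, fill 90.8% of the sphere bar and 66.6% of the parental bar, while the blue blocks (miR-200b-3p, miR-200c-3p and miR-429) and the green 5p strands take smaller parts in spheres.

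Inside each library, the split ran between the seeds within both transcription units. The AACACUG seed exceeded the AAUACUG seed 11.5-fold in spheres (10.9 to 12.2) and 2.54-fold in parental cells (2.48 to 2.61), a ratio of ratios of 4.53 (4.27 to 4.82). On chromosome 1, miR-200a-3p exceeded miR-200b-3p 14.0-fold in spheres (12.8 to 15.3) and 1.91-fold in parental cells (1.84 to 1.98), a ratio of ratios of 7.32 (6.66 to 8.05). miR-200a-3p exceeded miR-429 35.8-fold in spheres (31.2 to 41.3) and 7.81-fold in parental cells (7.33 to 8.33), a ratio of ratios of 4.59 (3.94 to 5.33). On chromosome 12, miR-141-3p exceeded miR-200c-3p 13.3-fold in spheres (12.2 to 14.4) and 4.63-fold in parental cells (4.44 to 4.83), a ratio of ratios of 2.86 (2.61 to 3.14). All 3 same-unit pairs with different seeds thus had the higher ratio in spheres. These ratios depend on how reads were divided between near-identical members of the 2 units, which the counting intervals do not cover.

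Within the AAUACUG seed the ratios moved less, and those of miR-200b-3p to its seed partners were lower in spheres. miR-200b-3p exceeded miR-429 2.57-fold in spheres (2.18 to 3.02) and 4.10-fold in parental cells (3.83 to 4.38). The ratio of miR-200b-3p to miR-200c-3p was 0.854 in spheres (0.760 to 0.960) and 1.67 in parental cells (1.59 to 1.75), so miR-200b-3p was the scarcer one in spheres and the more abundant one in parental cells. The 3p-side sums of the transcription units kept the same balance. The 3p-side members of chromosome 12 exceeded those of chromosome 1 1.09-fold in spheres (1.06 to 1.12) and 1.07-fold in parental cells (1.05 to 1.10). The ratio of ratios was 1.01 (0.977 to 1.05). This balance rested on the most abundant member of each unit: without miR-141-3p and miR-200a-3p, the ratio of miR-200c-3p to miR-200b-3p and miR-429 together was 0.843 in spheres and 0.482 in parental cells, 1.75-fold higher (1.56 to 1.96). Both units were accordingly higher by nearly the same amount in spheres on the rescaled scale, with an interval of 3.84- to 4.05-fold for chromosome 1 and 3.90- to 4.11-fold for chromosome 12, and both were lower as deposited, by 1.22 and 1.20 times.

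**Figure D3:**
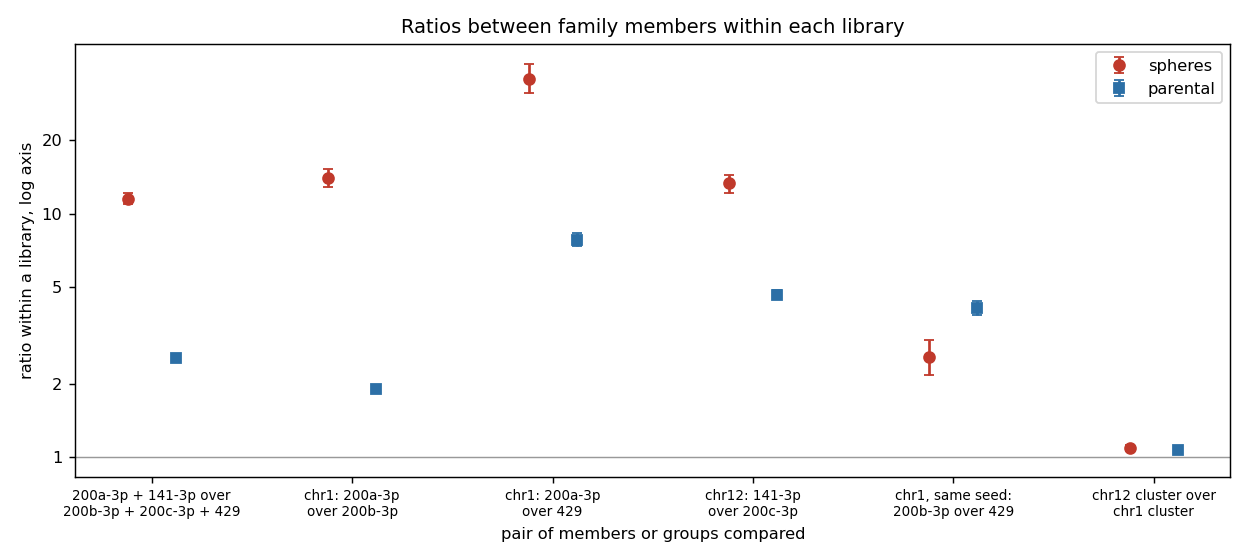
Ratio between members or groups of members within the sphere library (red circles) and within the parental library (blue squares), on a log axis, with 95% counting intervals. The 4 comparisons of the AACACUG seed with the other seed have the higher ratio in spheres (11.5 and 2.54 for the whole seed groups), and miR-200b-3p over miR-429 has the lower one. The 3p-side ratio of chromosome 12 to chromosome 1 is 1.09 in spheres and 1.07 in parental cells.

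How far neighbouring hairpins usually differ was looked up across the tables after these values were seen. A miRNA was called measured where its 2 rescaled values averaged 10 RPKM or more, which 269 did. Of these, 217 names matched RefSeq, which gave 151 hairpins at a single place and 44 pairs within 10 kb on the same strand. The log2 folds of the partners were at least 2-fold apart in 16 of the 44 pairs (36.4%), and the median gap was 0.90 on the log2 scale. Differences between neighbours were thus common in these libraries. The gap of 2.87 between miR-200a-3p and miR-200b-3p was the largest of the 44, that of 2.20 between miR-200a-3p and miR-429 ranked 4, and that of 1.52 between miR-141-3p and miR-200c-3p ranked 12. miR-200b-3p and miR-429, which share a seed, ranked 28 with 0.67. Outside the family, 13 of 40 pairs (32.5%) were at least 2-fold apart, with a widest gap of 2.63. Some of these pairs set the main strand of a hairpin against the passenger strand of its neighbour, as miR-30e-5p against miR-30c-1-3p in that widest one. With hairpins entered only by their more abundant strand, 13 of 35 pairs were at least 2-fold apart, and 10 of 31 outside the family (32.3%), with a widest gap of 2.33. The 4 pairs of the family then ranked 1, 3, 10 and 20. These pairs share hairpins and libraries, so the ranks describe these 2 libraries.

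Set among all measured miRNAs, the family did not move as a block. Of the 8 members 7 were measured, and miR-200b-5p, at a mean of 5.57 rescaled RPKM, was not. Of the 7, 2 were at least 2-fold higher in spheres and 0 at least 2-fold lower, where 23.0% of the 269 measured miRNAs were higher and 19.0% were lower. The members' share at least 2-fold higher, 2 of 7, was near that background. Of the 7, 5 had a log2 fold above 0, as had 50.9% of all measured miRNAs (1 of the 7 and 10.4% as deposited), and the median log2 fold was 0.37 for the members and 0.020 for all. As deposited, 0 of the 7 were at least 2-fold higher and 5 were at least 2-fold lower, where the background was 6.32% higher and 79.6% lower, and the median was -1.90 for the members and -2.25 for all. The folds of miR-200a-3p and miR-141-3p ranked 24 and 29 of 269, those of miR-200c-3p, miR-429, miR-200a-5p and miR-200b-3p 78, 99, 127 and 164, and that of miR-141-5p 202.

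**Figure D4:**
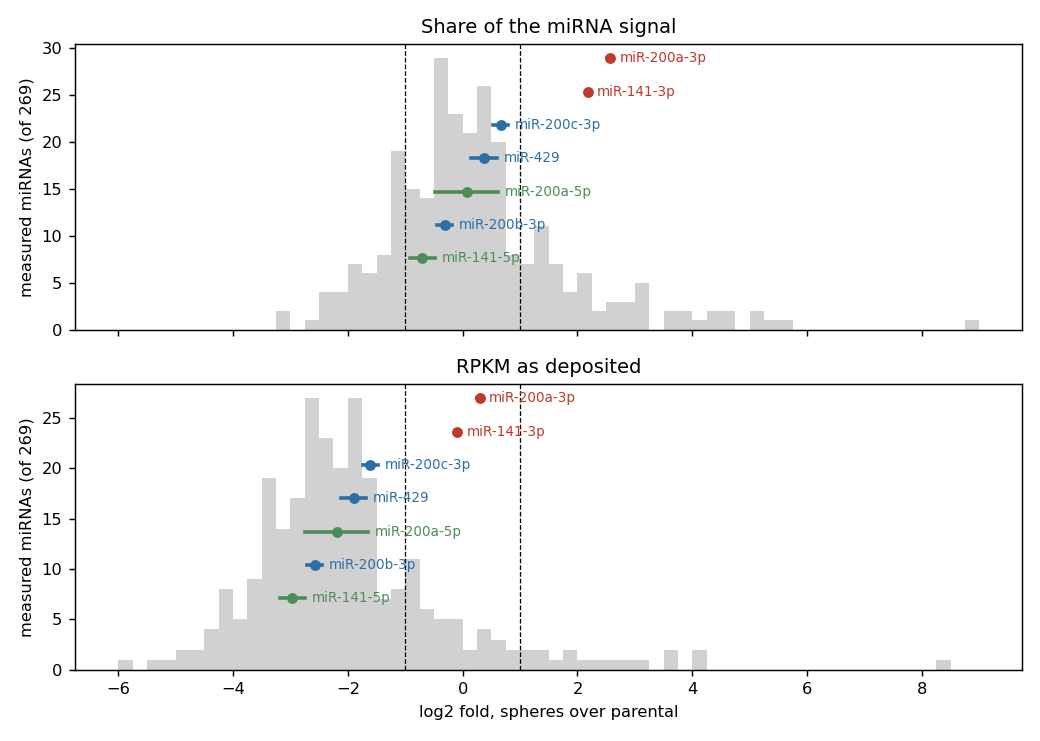
Distribution of the log2 fold, spheres over parental, over the 269 measured miRNAs (grey bars, number of miRNAs in steps of 0.25), for rescaled RPKM (top) and RPKM as deposited (bottom), with the 7 measured members as points with 95% counting intervals at heights chosen for legibility and dashed lines at 2-fold. miR-200a-3p (2.57) and miR-141-3p (2.18) lie right of the 2-fold line in the top panel and inside both lines in the bottom panel, while the other members lie near the bulk of all miRNAs in both.

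The 5p strands are the less abundant products of their hairpins. Those of miR-141 and miR-200a did not share the excess of their 3p partners, while the 3p partner of miR-200b-5p had no excess. miR-141-5p had 273 rescaled RPKM in spheres and 443 in parental cells, 1.62 times lower (1.40 to 1.90). It had 1502 RPKM as deposited in spheres and 11749 in parental cells, 7.82 times lower. miR-200a-5p had 49.8 rescaled RPKM in spheres and 47.1 in parental cells, a fold of 1.06 whose interval (0.714 to 1.52) includes 1, and as deposited 275 RPKM in spheres and 1248 in parental cells, 4.54 times lower. miR-200b-5p had 4.40 rescaled RPKM in spheres, which is the floor of 3 reads, and 6.75 in parental cells on 31 estimated reads. Its fold of 0.675 on this scale had an interval from 0.126 to 2.07, so no difference in share was detectable at this depth. As deposited it had 24.2 RPKM in spheres and 179 in parental cells, 7.26 times lower (2.33 to 38.2).

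The hairpins of the AACACUG seed therefore differed in the balance of their strands. For miR-141, the 5p strand reached 2.22% of the 3p strand in spheres (1.91% to 2.57%) and 16.3% in parental cells (15.6% to 17.1%), which is 7.35 times lower (6.31 to 8.57). For miR-200a, it reached 0.452% in spheres (0.313% to 0.632%) and 2.53% in parental cells (2.20% to 2.90%), 5.60 times lower (3.88 to 8.32). In both hairpins the 3p strand was the more abundant one in each library. For miR-200b, the 5p strand reached 0.556% in spheres (0.114% to 1.64%) and 0.692% in parental cells (0.475% to 0.995%), and the 3 sphere reads allow no statement on a difference. The opposite strand of miR-200c, which is not among the 8 members, gave 0.317% in spheres (0.0383% to 1.15%) on 2 estimated reads and 1.89% in parental cells (1.39% to 2.49%) on 50. Its ratio was 5.96 times lower in spheres, with a wide interval of 1.55 to 50.5.

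Lower strand ratios in spheres were frequent beyond the family. Among 50 hairpins with both arms measured, a comparison chosen after the values were seen, the ratio of the less to the more abundant arm was at least 2-fold lower in spheres in 15 (30.0%), and miR-141 and miR-200a had the 2 largest deficits, of -2.88 and -2.49 on the log2 scale. Of the 48 other hairpins, 13 were at least 2-fold lower and 5 at least 2-fold higher, 32 were below 0, and the median was -0.45. Like miR-141 and miR-200a, 23 of these had the 5p arm as the less abundant one. Among the 23, 10 (43.5%) were at least 2-fold lower and 2 at least 2-fold higher, 14 were below 0, and the median was -0.54. In the 7 other hairpins whose more abundant arm was at least 2-fold higher in spheres, 4 had a ratio at least 2-fold lower and the median was -1.12. Since the more abundant arm is the denominator, a high value of it lowers the ratio by construction unless its partner is higher too. The sphere library holds fewer reads on miRNAs, and the part of depth in these ratios was not tested.

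**Figure D5:**
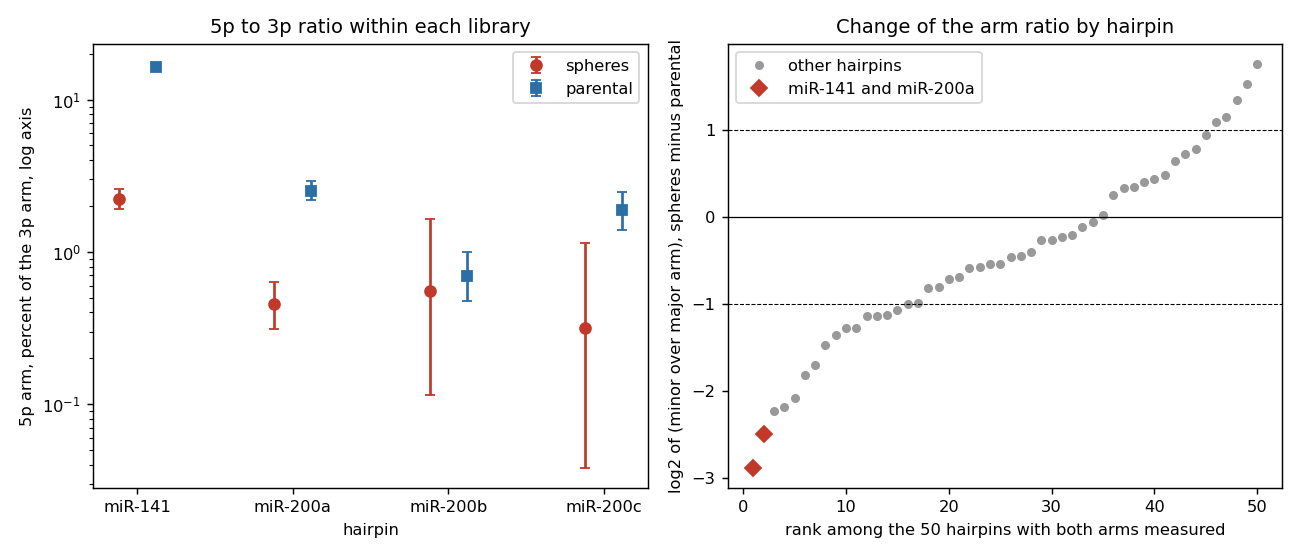
Left, the 5p strand as percent of the 3p strand of each hairpin, on a log axis, in the sphere library (red circles) and the parental library (blue squares), with 95% counting intervals. Right, the log2 ratio of the less to the more abundant arm, spheres minus parental, for the 50 hairpins with both arms measured in order of size: miR-141 (-2.88) and miR-200a (-2.49), in red, stand at the low end of a distribution that lies mostly below 0.

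The miRNAs whose levels were most like those of the members were found by the distance between the log2 rescaled values over the 2 libraries, among measured miRNAs outside the family. For miR-141-3p the nearest were miR-221-3p (distance 0.50) and miR-181a-5p (0.86), and for miR-200a-3p they were miR-181a-5p (0.82) and miR-221-3p (0.90). miR-221-3p had 9421 rescaled RPKM in spheres and 3403 in parental cells, and miR-181a-5p 6790 in spheres and 2515 in parental cells, so both were higher in spheres by less than the members they resemble. miR-200b-3p was nearest to miR-148b-3p (0.30) and miR-99a-5p (0.39), miR-200c-3p to miR-183-5p (0.33) and miR-26b-5p (0.34), and miR-429 to miR-19b-3p (0.052) and miR-425-5p (0.27). With 2 libraries, this likeness reflects the level and a single difference.

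Most other miRNAs on a list tied to the epithelial state were higher as a share of miRNA in spheres, fewer of them by 2-fold. This list and the mesenchymal one below were written with earlier results of these data known, so their counts only describe these libraries. Of 15 on an epithelial list, 13 were measured, and 12 of these had a log2 fold above 0, beside 50.9% of all measured miRNAs. As deposited 2 of the 13 did, beside 10.4% of all. At least 2-fold higher in spheres were 5 and at least 2-fold lower 0, beside 23.0% higher and 19.0% lower of all measured miRNAs. The 5 became 3 under each of 4 other scalings, which leave miR-96-5p (1.04) and miR-215 (1.02) under 2-fold. These scalings shift log2 folds by -0.10 to -0.32, so miR-183-5p (0.29), miR-182-5p (0.063) and miR-101-3p (0.020), counted above 0, have no firm sign. As deposited 1 was higher and 10 were lower, beside 6.32% and 79.6% of all. The median log2 fold was 0.54, beside 0.020 for all measured miRNAs, and as deposited -1.73, beside -2.25. miR-203a, which restrains p63 and the proliferative state in stratified epithelium, was 13.0-fold higher, with 35056 rescaled RPKM in spheres and 2698 in parental cells. miR-205-5p, which also represses ZEB1 and ZEB2, had 19458 in spheres and 21938 in parental cells, a log2 fold of -0.17. It was thus close in level to the sum of miR-200a-3p and miR-141-3p in spheres, and above that sum in parental cells. miR-31-5p and miR-30a-5p had log2 folds of 0.73 and 0.38, and both were negative as deposited.

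The shares of mesenchymal markers past 2-fold were close to those of all miRNAs or below them, while their median log2 fold was higher. Of 13 on that list, 7 were measured, 2 at least 2-fold higher in spheres (miR-221-3p and miR-143-3p) and 0 at least 2-fold lower, beside 23.0% and 19.0% of all measured miRNAs. As deposited, 0 of them were at least 2-fold higher and 5 at least 2-fold lower, beside 6.32% and 79.6% of all. Of the 7, 5 had a log2 fold above 0, beside 50.9% of all measured miRNAs, and as deposited 0 did, beside 10.4%. Among the 5, miR-9-5p (0.30) and miR-100-5p (0.078) have no firm sign under the other scalings. The median log2 fold was 0.30, beside 0.020 for all, and as deposited -1.97, beside -2.25. The summed level of the list was 17038 rescaled RPKM in spheres and 11859 in parental cells. Most of it was miR-221-3p, miR-222-3p, miR-10b-5p and miR-100-5p, which carcinoma lines express too. miR-222-3p had 2805 rescaled RPKM in spheres and 3443 in parental cells, miR-10b-5p 2493 in spheres and 3024 in parental cells, and miR-100-5p 1255 in spheres and 1189 in parental cells. The less abundant miR-155-5p and miR-9-5p were higher in spheres on this scale, with log2 folds of 0.37 and 0.30. Both were negative as deposited. Of the markers most typical of stromal cells, miR-143-3p was clear of the floor, with 66.3 rescaled RPKM in spheres and 25.9 in parental cells on 45 and 118 estimated reads. miR-127-3p, below the level counted as measured, had 16.1 in spheres and 1.98 in parental cells, 6.70-fold higher (3.07 to 22.2) on 11 and 9 reads. The others were at 5 estimated reads or fewer in spheres. miR-145-5p had 1.40 rescaled RPKM in spheres and 0 in parental cells, miR-214-3p 0.244 in spheres and 0 in parental cells, miR-199a-3p 7.08 in spheres and 2.02 in parental cells, and miR-199a-5p 1.40 in spheres and 1.05 in parental cells. miR-199b-5p was listed at 0 in both libraries. The part of such cells in the members' values was not tested.

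Of the other cell types looked up, miR-122-5p of hepatocytes was listed at 0 in both libraries, and none of 3 muscle miRNAs was measured, with summed levels of 17.0 rescaled RPKM in spheres and 1.98 in parental cells. Of 6 blood cell miRNAs, miR-486-5p alone was measured, with 207 rescaled RPKM in spheres and 741 in parental cells. Among those below that level, miR-150-5p had 13.2 rescaled RPKM in spheres (9 estimated reads) and 0 in parental cells, miR-451a 5.86 in spheres and 0.440 in parental cells, and miR-142-3p 2.80 in spheres and 0 in parental cells. miR-223-3p had 0 in spheres and 0.0845 in parental cells, and miR-144-3p was listed at 0 in both. Both endothelial miRNAs were measured, miR-126-5p with 376 rescaled RPKM in spheres and 154 in parental cells and miR-126-3p with 68.9 in spheres and 38.3 in parental cells.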

How the data were processed

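Small RNA of 1 sphere and 1 parental FaDu library was measured. The authors deposited 1 RPKM value per mature miRNA name, per the file headers, and the submitters' processing notes name hg19. What aligner, counting tool and annotation release were used, and how reads with several matches were treated, is not given in the sources used here. No counts were used. The commonest low value, 8.07 RPKM in the sphere and 5.84 RPKM in the parental library, was taken as 1 read on 22 nt, so reads are estimates that ignore differences in mature length. Some values lie well under that step, such as 1.35 RPKM for miR-214-3p in spheres and 2.24 RPKM for miR-223-3p in parental cells. What lies behind these was not tested, and all estimated reads and intervals depend on the step. Each column was rescaled to 1000000. The log2 fold used a pseudocount of 0.5, which understates changes of low miRNAs, and a call means at least 2-fold at a mean of at least 10. Intervals of ratios and shares are Clopper-Pearson. Those of ratios of ratios are conditional exact where any number of reads is under 50 and normal approximations otherwise. Scaling, 2-fold calls and the coverage of intervals were tested on simulated reads. The estimate of reads from RPKM and the comparisons of strands and neighbours across hairpins were not. Members, lists and comparisons were chosen with earlier results of these data known. All members were named, with the 2 nearest miRNAs each and up to 4 of a list. Other list members are named too, picked with their values in view. Python 3.11.15, pandas 2.3.3 and scipy 1.17.1 were used.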

Additional observations from a re-analysis of the deposited data

How the results depend on the processing

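RPKM as deposited moved the values most, by -2.27 in log2, because miRNAs take a smaller part of the reads in spheres. On that scale the log2 fold was 0.082 for the AACACUG seed (2.35 rescaled), -2.10 for the AAUACUG seed (0.17 rescaled), -2.87 for the 5p strands (-0.60 rescaled) and -0.37 for all 8 members (1.90 rescaled). It turned negative for miR-141-3p (-0.090), the 3p-side sums of chromosome 1 (-0.29), chromosome 12 (-0.27) and both (-0.28), the sums of all strands (-0.31 for chromosome 1 and -0.42 for chromosome 12) and miR-221-3p (-0.80). Members at least 2-fold higher became 0 and lower ones 5, and among the 269 measured miRNAs 17 were higher and 214 lower. The trimmed mean, median of ratios, upper quartile and total without the 5 most abundant miRNAs shifted log2 folds by -0.20, -0.21, -0.32 and -0.10. They gave 55, 55, 51 and 56 measured miRNAs higher, in place of 62, and 65, 65, 68 and 56 lower, in place of 51, and took the epithelial list to 3 higher of 13. Of the members' calls they ended none, and the upper quartile alone added 1, miR-141-5p as lower (-1.02). The sum of the AAUACUG seed ran from -0.15 to 0.073 under these 4, and miR-200a-5p from -0.24 to -0.014, so neither has a firm sign. Without a filter 193 miRNAs were higher and 180 lower, and at a mean of at least 100 there were 23 and 18. Asking for the whole counting interval beyond 2-fold left 46 higher and 18 lower. Neighbouring hairpins entered by their more abundant strand only, an alternative chosen after seeing the data, gave 13 pairs at least 2-fold apart in place of 16. Ratios within a library do not depend on scaling. The log2 differences of the 8 ratios tried kept their sign and their side of 2-fold when reads were not divided by length. Only 3 could be run without the most abundant member of a group. The seed groups (1.99) stayed above 2-fold there. So did the chromosome 1 seeds (2.20), but miR-200a-3p, alone on its side, was kept and only miR-200b-3p was left out. The ratio of chromosome 12 to chromosome 1 had no clear direction with all 3p-side members (0.020, interval -0.034 to 0.075). Without miR-141-3p and miR-200a-3p it moved to 0.80 (0.64 to 0.97), still under 2-fold. No paired analysis was possible because each condition has a single library, which also leaves no replicate to omit.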
